A study of Mus musculus with 4 samples.

Results

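The voltage-gated and potassium channel genes measured in this series of mouse skeletal muscle are 63 of the 8251 genes that the array's gene table names. They were taken by symbol, as probe sets with a single gene symbol that begins with Kcn, Cacn or Clcn, or with Scn and a digit, leaving out the muscle genes Cacna1s, Cacnb1, Cacng1 and Clcn1. A probe set is the group of array probes that measures 1 transcript, and 81 of the 12422 probe sets that are not controls belong to these 63 genes. Total RNA was hybridised to 4 arrays, of which the titles mark 2 as J (replicates 1a and 1c) and 2 as NJ (replicates 1a and 1d). All 4 titles also carry the code Ctr and a time of 0 h. The codes are not spelled out, and no strain, age or sex is given. The series is named for the neuromuscular junction, the synapse between motor nerve and muscle fibre, and the design compares J with NJ. The labels do not say whether separate animals were used, so p-values measure only the spread between these samples, which may be technical.

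Ion channels turn the signal of the nerve into contraction. At the synapse the transmitter depolarises the fibre, voltage-gated sodium channels carry the action potential along it, voltage-gated calcium channels in the transverse tubules sense the voltage and trigger calcium release, and potassium and chloride channels repolarise and steady the membrane. Most channels consist of a pore-forming subunit, which gives the channel its type, and of auxiliary subunits that set its gating and its number at the surface. The same families serve the motor axon, Schwann cells, blood vessels and immune cells, all of which are present in muscle tissue. In such mixed tissue, fewer cells of a type and less RNA per cell cannot be told apart.

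Few channel transcripts stood above background. The background level was set on each array as the 90th percentile of the deposited signal of 83 probe sets for 68 genes of retina, lens, germ cells, pancreas, liver, kidney, gut, pituitary, milk and similar sources. This level was 970 on J 1a, 725 on J 1c, 801 on NJ 1a and 737 on NJ 1d, in the intensity units of the deposited table. Above it on all 4 arrays were 3 of the 81 channel probe sets, or 3.70%, against 18.4% of all 12422 probe sets. They were Cacna2d1, Kcnk4 and 1 of the probe sets of Kcnq1. On at least 3 arrays 11 of the 81 passed, against 25.1% of all probe sets, and 57 passed on none. Those that passed on 3 arrays were Cacna1b, Kcnd3, Kcnj12, Kcnk7, Kcnma1 and Clcn3 at 102786_at, 94464_at and 94465_g_at. The number above background on all 4 arrays moved with the level chosen. It was 16 of the 81 (19.8%) with the 75th percentile and 22 (27.2%) with the 90th percentile of 19 bacterial and yeast control probe sets. With the 95th percentile it was 1. Over all probe sets these levels gave 29.8%, 37.8% and 12.6%. Array J 1a had the highest level and only 8 channel probe sets above it, against 15 or 16 on the other arrays. Of all probe sets 24.5% were above the level on J 1a, and 29.0% to 30.4% on the other arrays. Without J 1a, 9 of the 81 channel probe sets were above background on all remaining arrays, against 22.4% of all probe sets.

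**Figure D1:**
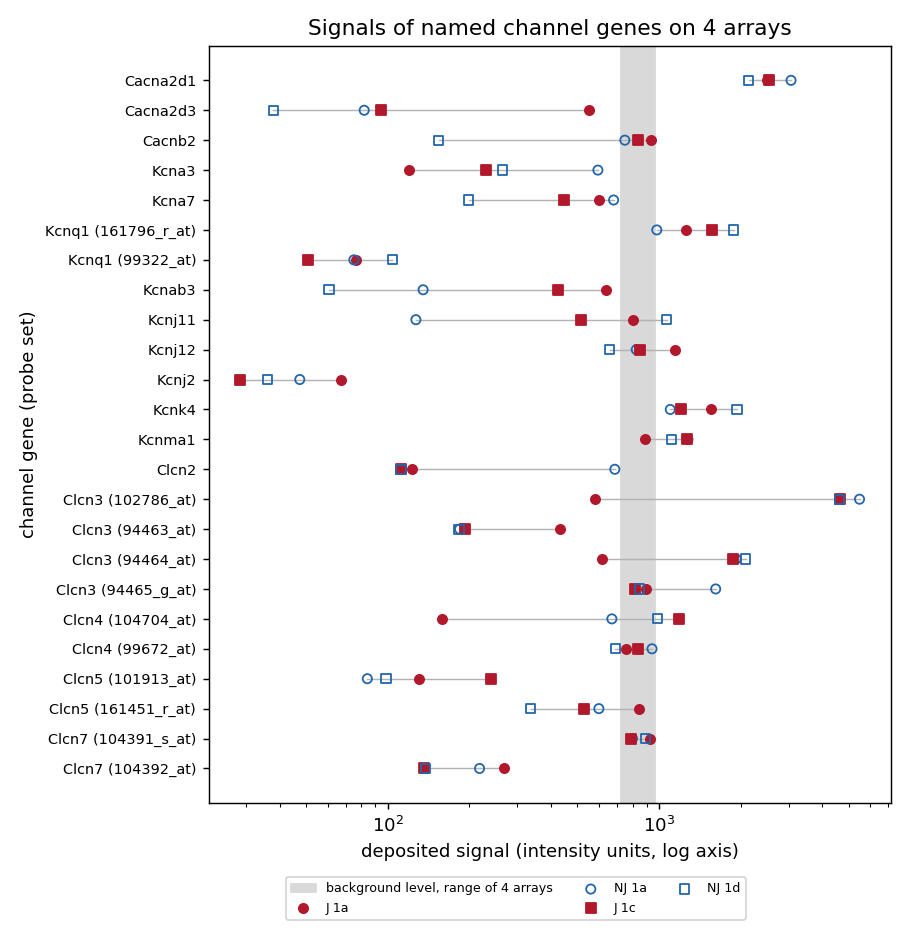
Deposited signal (log axis) of 24 probe sets of the named channel genes on each of the 4 arrays, with J as filled red and NJ as open blue symbols, circles for replicate 1a and squares for 1c or 1d. The grey band spans the background levels of the arrays, 725 to 970; Cacna2d1, Kcnk4 and probe set 161796_r_at of Kcnq1 lie to its right on all 4 arrays.

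No channel gene passed the test of J against NJ. A filter on low mean signal left 52 of the 81 channel probe sets (64.2%) for testing, against 75% of all. The mean is over all 4 arrays, so a probe set can pass through the group where it is high. In limma's test across 9316 probe sets, 0 of 52 tested channel probe sets (44 genes) had a Benjamini-Hochberg adjusted p under 0.05, and 0% of all probe sets tested did. At an unadjusted p under 0.05 limma gave 1 channel probe set, Kcnab3, and 198 of all 9316, or 2.13%. Differences are given throughout as J minus NJ on a scale of log2(signal + 32) after quantile normalisation, ± the standard error of the fit, with 2 arrays a group. Where values of each group are given, replicate 1a comes first and 1c (J) or 1d (NJ) second. On this log scale the change of a dim gene comes out too small. Of the 52 channel probe sets 25 were above 0 and 27 below 0, with a median difference of −0.02, against −0.01 over all probe sets tested. The groups did not overlap for 12 of the 52, or 23.1%, against 26.5% of all tested. Both J values were above both NJ values for 5 (13.6% of all tested) and below them for 7 (12.9% of all tested). Overlap is judged after normalisation. On the deposited values 14 did not overlap (26.3% of all tested), 9 above (14.3% of all tested) and 5 below (12% of all tested), so that the split between directions turned. Of the 12, 10 did not overlap there either, while Clcn2 and Clcn3 at 94465_g_at did. The 4 that separated only on the deposited values, all with J above, were Cacng2, Kcns2, Clcn3 at 94463_at and Clcn5 at 101913_at. With 2 arrays in each group, the smallest two-sided p of an exact permutation test is 0.33. The median standard error was 0.77 for channel probe sets, and 7 of the 52 differed by at least 1 in size, or 13.5%, against 14.5% of all tested. Without J 1a limma called 4 probe sets of the whole table (0.0429%), all lower in J, and with a term for the number format described below it called 8, or 0.0859% of those tested. None of these was a channel gene.

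**Figure D2:**
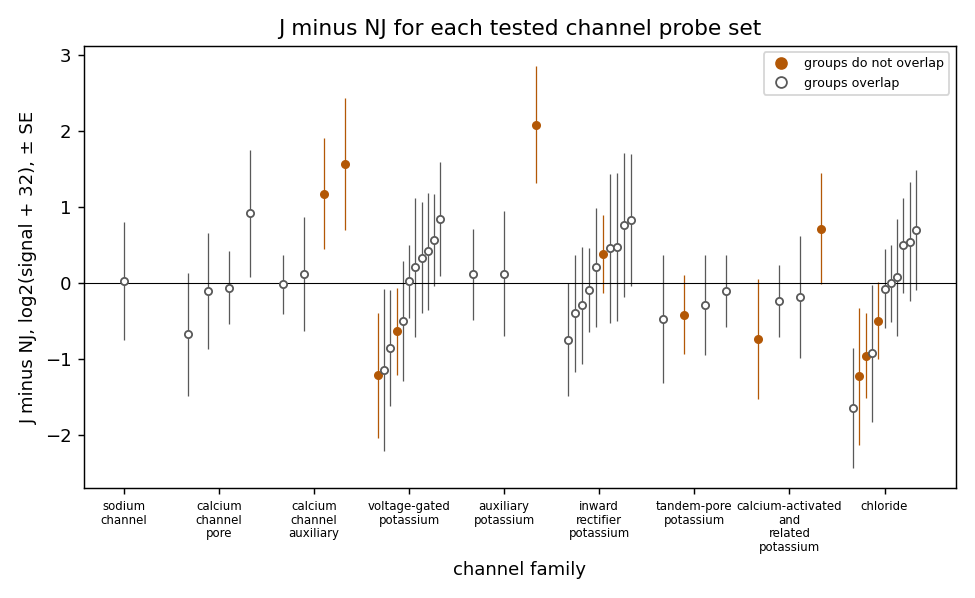
Difference J minus NJ on the log2(signal + 32) scale for each of the 52 tested channel probe sets, by family, with bars of ± 1 standard error. Filled points mark the 12 whose J and NJ values do not overlap; the points run from −1.65 to 2.08 and lie on both sides of 0.

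Number format splits the deposited table in a way that the groups do not. Both 1a columns are written with all digits and the columns of J 1c and NJ 1d with 1 decimal, so J can be compared with NJ inside each pair, called here the 1a pair and the 1c/1d pair. Of the 52 channel probe sets 21 had the same sign in both pairs, or 40.4%, against 49.4% of all tested. A difference of at least 1 was found for 21 channel probe sets in the 1a pair and for 10 in the 1c/1d pair, which is 40.4% and 19.2% against 33.7% and 15.1% of all tested. The 1a arrays therefore carried most of the large channel differences, as they did over all probe sets.

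**Figure D3:**
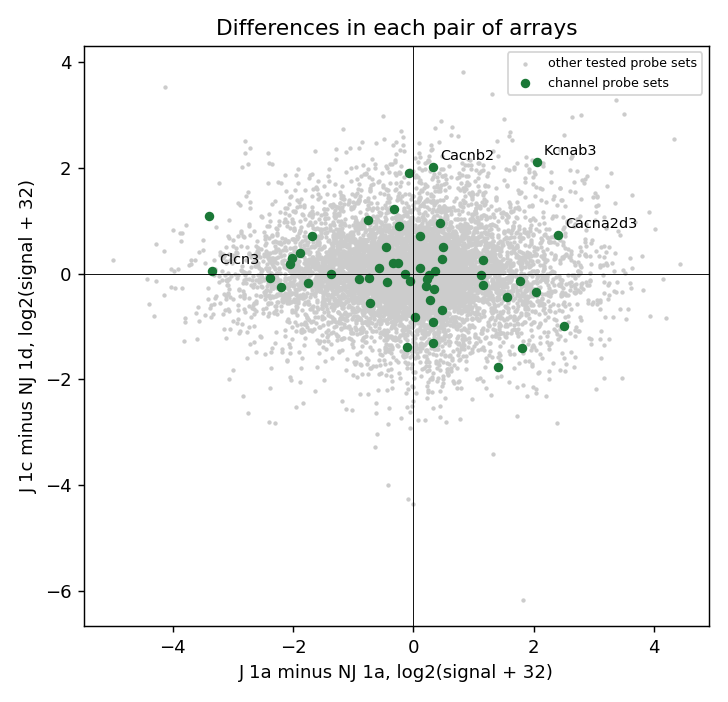
Difference between J 1a and NJ 1a (horizontal) against the difference in the 1c/1d pair (vertical), both on the log2(signal + 32) scale, for channel probe sets in green and the other tested probe sets in grey. Kcnab3 lies at about 2 on both axes, Cacnb2 is high in the 1c and 1d pair, and the outlying Clcn3 probe set is low in the 1a pair alone.

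Sodium channel genes encode the pores of the action potential. The 8 probe sets measured 6 of them, Scn1a, Scn3a, Scn7a, Scn8a, Scn9a and Scn10a, all known mainly from neurons and glia. None was above background on any array, and their signals ran from 5.6 to 338. Only Scn8a, the channel of the nodes of Ranvier in myelinated axons, had a probe set bright enough to test, reading 249 and 221 on the J arrays and 338 and 136 on the NJ arrays. The J values lay between the NJ values, and the difference was 0.02 ± 0.78. Its other probe set gave 60.1 and 7.7 on the J arrays and 49.0 and 14.6 on the NJ arrays. Scn4a, the sodium channel of the adult fibre, was not analysed here.

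Among the pores of voltage-gated calcium channels, 4 of 7 probe sets could be tested, 1 with a higher and 3 with a lower mean in J. Cacna1b, the N-type channel of nerve endings, read 895 and 1078 on the J arrays and 973 and 1037 on the NJ arrays, above background on 3 arrays. The groups overlapped, with a difference of −0.07 ± 0.48. Cacna1a, the P/Q-type channel that releases transmitter at the motor nerve ending, read 119 and 84.5 on the J arrays and 337 and 75.1 on the NJ arrays. It was below background on all arrays, and its difference of −0.68 ± 0.81 came from NJ 1a. Cacna1c, the L-type channel of heart and smooth muscle, read 779 and 565 on the J arrays and 822 and 110 on the NJ arrays. Only NJ 1d was low, so the difference was 0.91 ± 0.84 in all, −0.08 in the 1a pair and 1.90 in the 1c/1d pair. Cacna1e, the R-type channel of neurons, gave 105 to 197 at 100338_s_at and was too dim to test at its other probe set. The T-type channels Cacna1g and Cacna1h were too dim to test, with signals from 33.5 to 116.

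Of the auxiliary subunits of calcium channels, Cacna2d1 was above background throughout. It encodes the alpha2-delta subunit that accompanies the skeletal muscle calcium channel and binds gabapentin. Its signal was 2497 and 2553 on the J arrays and 3065 and 2139 on the NJ arrays. Both J values fell between the NJ values, and the difference was −0.02 ± 0.39 with a 95% confidence interval from −0.90 to 0.86. Its sign turned without NJ 1a (0.26) and without J 1c (0.03).

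Cacnb2 and Cacna2d3 had J values above both NJ values. Cacnb2, a beta subunit that carries the pore to the membrane, read 937 and 838 on the J arrays and 748 and 154 on the NJ arrays. Only NJ 1d was far from the rest, and the difference of 1.17 ± 0.73 was made of 0.33 in the 1a pair and 2.0 in the 1c/1d pair. Leaving out each array in turn moved it from 0.26 (without NJ 1d) to 2.11 (without NJ 1a). Cacna2d3, a neuronal alpha2-delta subunit, read 553 and 94.4 on the J arrays and 81.9 and 37.9 on the NJ arrays. Here J 1a alone was high, with a difference of 1.56 ± 0.87 in all, 2.40 in the 1a pair and 0.72 in the 1c/1d pair. The log2 means of Cacna2d3 were 8.09 in J and 6.52 in NJ, so it passed the filter on low signal through the J arrays. Without J 1a, Cacna2d3 fell under that filter and was not fitted. With limma the adjusted p was 0.9998 for both, and their unadjusted p was 0.14 and 0.10. Cacng2, the stargazin gene of neurons, stayed between 109 and 135 on all arrays.

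Potassium channels of the voltage-gated kind repolarise the membrane after a spike. Of 19 probe sets for 16 pore genes 11 were tested: 6 with a higher and 5 with a lower mean in J and a median of 0.02. Kcnq1, the slow repolarising channel of heart and epithelia, read 1255 and 1570 on the J arrays and 981 and 1886 on the NJ arrays at probe set 161796_r_at, above background on every array. The J values again lay between the NJ values, with a difference of 0.02 ± 0.48 that was −0.02 after median centring. Its other probe set, 99322_at, gave 51.0 to 104 on the 4 arrays, so the probe sets of Kcnq1 disagree on whether the transcript was above background. Kcnd3, a fast inactivating A-type channel, read 1453 and 824 on the J arrays and 493 and 1103 on the NJ arrays and passed the background level on 3 arrays. Its groups overlapped, and its difference was 0.56 ± 0.60.

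The remaining voltage-gated pores were near or under background. Kcna7, a channel known from skeletal muscle and heart, read 601 and 448 on the J arrays and 680 and 199 on the NJ arrays, with a difference of 0.33 ± 0.73 that was −0.33 without NJ 1d. Kcna3, the channel of T cells, read 120 and 231 on the J arrays and 595 and 265 on the NJ arrays. Both J values were lower, mostly through the 1a arrays, and the difference was −1.22 ± 0.82 (limma unadjusted p = 0.17, adjusted p = 0.9998). Kcnh2, the rapid repolarising channel of the heart, read 516 and 571 on the J arrays and 805 and 850 on the NJ arrays. This pattern was alike in both pairs, at −0.72 and −0.56, and the difference of −0.64 ± 0.57 did not pass. At probe set 102295_at Kcna5, a channel of atrium and vessels, ran from 51.9 on J 1a to 753 on NJ 1a, and the pairs went opposite ways, at −3.40 and 1.09. Kcns1 and Kcns2, subunits that modify other pores and form none of their own, stayed between 77.5 and 404.

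Among the pores not yet described, Kcnc1, a fast delayed rectifier, read 1022 and 424 on the J arrays and 255 and 532 on the NJ arrays. Kcnd1, an A-type channel, read 225 and 524 on the J arrays and 881 and 387 on the NJ arrays. Kcnc1 was thus high and Kcnd1 low in J within the 1a pair (2.03 and −2.01), with small differences the other way in the 1c/1d pair (−0.35 and 0.30). Kcna2, an axonal channel, read 352 and 189 on the J arrays and 271 and 524 on the NJ arrays, with overlapping groups. The axonal Kcna1 and the related Kcna4, Kcna6, Kcnd2 and Kcnh1 were too dim to test, with signals from 3.6 to 207.

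Kcnab3 had the largest fitted difference of the channel probe sets tested, although all 4 of its values were under the background level. It encodes a cytoplasmic beta subunit that binds voltage-gated potassium channels and speeds their inactivation. Its signal was 635 and 423 on the J arrays and 135 and 60.7 on the NJ arrays. Both J arrays were above both NJ arrays, and the difference of 2.08 ± 0.77 was 2.05 in the 1a pair and 2.11 in the 1c/1d pair. Leaving out each array in turn gave values from 1.83 to 2.32. The 95% confidence interval ran from 0.34 to 3.81, with limma's unadjusted p at 0.024 and its adjusted p at 0.9998, or 0.65 with the number format term. The log2 means were 9.09 in J and 7.01 in NJ, so Kcnab3 passed the filter on low signal through the J arrays. On the looser level of the 75th percentile (578, 315, 391 and 328 on J 1a, J 1c, NJ 1a and NJ 1d) both J values were above it and both NJ values below. These are the same 4 values that gave the difference. How many of all probe sets were split in this way was not counted. With a difference of at least 1 and groups that do not overlap, Kcnab3 was 1 of 5 channel probe sets, beside Cacna2d3, Cacnb2, Kcna3 and Clcn2. That is 9.62% of those tested, against 9.56% of all probe sets.

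Of the other auxiliary subunits of potassium channels, Kcnab2 gave 737 and 498 on the J arrays and 607 and 482 on the NJ arrays, with a difference of 0.11 ± 0.60, and its second probe set stayed between 37.8 and 155. Kcnab1 was too dim to test at both of its probe sets, with 41.2 to 221 on the 4 arrays, as was Kcne1l, with 33.8 to 108. Kcne1, the small partner of Kcnq1, read 116 and 257 on the J arrays and 211 and 103 on the NJ arrays, and the groups overlapped.

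Inward rectifiers hold the resting potential and include the channels that ATP closes and those that G proteins open. Of 15 probe sets for 11 genes 10 were tested: 6 with a higher and 4 with a lower mean in J and a median of 0.29. Kcnj12, a strong rectifier of heart and skeletal muscle, read 1147 and 851 on the J arrays and 824 and 658 on the NJ arrays. Both J values were above both NJ values, by 0.38 ± 0.51 in all, 0.48 in the 1a pair and 0.27 in the 1c/1d pair. Kcnj2, the classical rectifier of the fibre, gave only 28.5 to 67.2 and was too dim to test. Kcnj11, the pore of the ATP-sensitive channel in muscle, read 803 and 515 on the J arrays and 127 and 1066 on the NJ arrays. The NJ arrays were the lowest and the highest, and the difference of 0.76 ± 0.95 was 2.50 in one pair and −0.99 in the other, or −0.76 without NJ 1a.

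Kcnj8, the ATP-sensitive pore of vascular smooth muscle, read 295 and 510 on the J arrays and 1030 and 348 on the NJ arrays, and its groups overlapped. Kcnj4 followed the number format, with 1166 on J 1a and 1174 on NJ 1a against 632 on J 1c and 674 on NJ 1d. The group difference of Kcnj4 was −0.10 ± 0.55. Of the G protein-gated rectifiers, Kcnj9 gave 2045 on J 1a and 274 to 618 on the other arrays at probe set 161799_r_at, while its other probe set gave 692 and 235 on the J arrays and 529 and 210 on the NJ arrays. Kcnj6 gave 324 and 191 on the J arrays and 426 and 201 on the NJ arrays at 92523_at and 58.9 to 554 at 92524_at, while Kcnj3 and Kcnj5 were too dim to test. Kcnj1, the secretory channel of kidney, and Kcnj15 gave 13.7 to 485 over their 4 probe sets, all under background.

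Tandem-pore channels carry the background potassium leak. The 4 tested probe sets of 5 had differences from −0.48 to −0.11, each smaller in size than its standard error. Kcnk4, a channel opened by membrane stretch, read 1548 and 1204 on the J arrays and 1100 and 1937 on the NJ arrays, above background on all 4 arrays. The groups overlapped, and the difference of −0.11 ± 0.47 was 0.47 in the 1a pair, −0.69 in the 1c/1d pair and 0.28 without NJ 1d. Kcnk7, a relative with no known current of its own, read 639 and 935 on the J arrays and 1012 and 964 on the NJ arrays, where J 1a alone was low. Kcnk2, another stretch-sensitive leak channel, read 168 and 499 on the J arrays and 557 and 260 on the NJ arrays. Its pairs went opposite ways, at −1.69 and 0.72. Kcnk1, a weak rectifier, read 847 and 304 on the J arrays and 673 and 607 on the NJ arrays, and the acid-sensitive Kcnk3 was too dim to test.

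Promoter sequence is shown for Cacna2d1 and Kcnk4, members above background, and for a single start of Kcnk2. That Kcnk2 stretch was the only one among the members' promoters read here to hold an N-box. The other starts listed for Kcnk2 held E-boxes and no N-box. The N-box, searched as CCGGAA on both strands, is the element through which synaptic genes of muscle are known to respond to signals from the nerve. The E-box, searched as CANNTG (the same on both strands), is bound by the myogenic transcription factors. Each sequence is the 250 bases before a start of the gene in RefSeq (GRCm38.p6), 5′ to 3′ on the gene's strand, with both motifs in capitals. They lie at chr5:15934441-15934690 on the plus strand for Cacna2d1, chr19:6934516-6934765 on the minus strand for Kcnk4 and chr1:189343354-189343603 on the minus strand for Kcnk2.
Cacna2d1: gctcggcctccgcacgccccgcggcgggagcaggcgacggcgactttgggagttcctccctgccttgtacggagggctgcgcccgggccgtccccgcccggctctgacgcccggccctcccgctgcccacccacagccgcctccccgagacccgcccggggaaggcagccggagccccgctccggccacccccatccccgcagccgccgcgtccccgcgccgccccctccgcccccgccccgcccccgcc
Kcnk4: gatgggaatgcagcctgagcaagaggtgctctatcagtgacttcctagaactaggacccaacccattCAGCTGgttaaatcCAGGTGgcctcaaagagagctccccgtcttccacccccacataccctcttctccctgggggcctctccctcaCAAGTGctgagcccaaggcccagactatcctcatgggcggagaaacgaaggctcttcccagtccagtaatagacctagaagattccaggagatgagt
Kcnk2: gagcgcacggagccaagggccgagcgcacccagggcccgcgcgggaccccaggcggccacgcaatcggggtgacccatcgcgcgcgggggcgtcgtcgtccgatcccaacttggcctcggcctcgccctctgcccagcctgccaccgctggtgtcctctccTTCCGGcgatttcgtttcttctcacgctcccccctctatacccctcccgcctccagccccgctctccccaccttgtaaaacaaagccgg

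The Cacna2d1 stretch holds neither motif and is 82.4% G and C. The Kcnk4 stretch holds 3 E-boxes and is 54.8% G and C. The table of promoters held 67 entries for 50 of the 63 channel genes. An N-box was found in 1 of these 67, or 1.49%, against 12.0% of all 32851 promoters of that length, and an E-box in 48, or 71.6%, against 66.2%. These are matches of letters and not shown to be sites of binding.

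Calcium-activated potassium channels couple the calcium signal to repolarisation. Kcnma1, the large-conductance channel, read 885 and 1264 on the J arrays and 1278 and 1114 on the NJ arrays, above background on all arrays but J 1a. The groups overlapped, with a difference of −0.24 ± 0.47 that was 0.01 without J 1a. Kcnmb1, its auxiliary subunit in smooth muscle, was too dim to test, at 13.5 to 89.9. Kcnn4, the intermediate-conductance channel of blood cells, read 549 and 440 on the J arrays and 235 and 335 on the NJ arrays. Both J values were above both NJ values, all under background, with a difference of 0.71 ± 0.73. Kcnn1 gave 878 and 345 on the J arrays and 339 and 1300 on the NJ arrays, so that each group held a high and a low array. Kcnu1, a relative known from sperm, read 110 and 78.4 on the J arrays and 115 and 239 on the NJ arrays, both J values being lower. Kcnn3, a small-conductance channel that denervated muscle is known to express, was not analysed here.

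The chloride family comprises membrane channels and the proton-coupled exchangers of endosomes and lysosomes. All 11 probe sets of its 5 genes were tested, 4 with a higher and 7 with a lower mean in J and a median of −0.08. Clcn3, an endosomal exchanger, had 4 probe sets that disagreed. At 102786_at the signal was 582 and 4635 on the J arrays and 5481 and 4629 on the NJ arrays. At 94464_at it was 616 and 1881 on the J arrays and 1924 and 2084 on the NJ arrays. In both cases J 1a alone was low, while the other 3 arrays were close together. At 94465_g_at the signal was 895 and 818 on the J arrays and 1617 and 847 on the NJ arrays, where NJ 1a alone was high, and at 94463_at it was 432 and 193 on the J arrays and 184 and 183 on the NJ arrays, where J 1a alone was high.

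The Clcn3 difference at 102786_at was −1.65 ± 0.79 (limma unadjusted p = 0.063, adjusted p = 0.9998, and 0.152 with the number format term). It was −3.35 in the 1a pair and 0.04 in the 1c/1d pair. Without J 1a it was −0.17. At 94464_at the difference was −0.96 ± 0.56, and −0.16 without J 1a. The other probe sets differed by −0.50 ± 0.51 and 0.54 ± 0.78. At 102786_at and 94464_at the difference thus rests on J 1a.

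**Figure D4:**
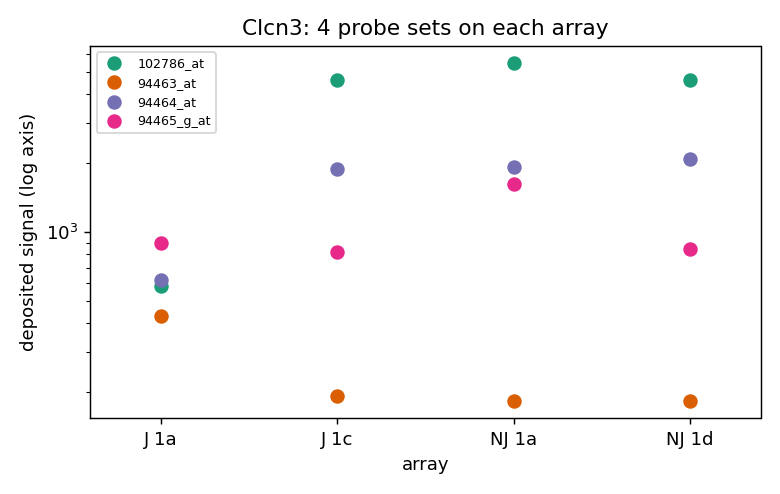
Deposited signal (log axis) of the 4 Clcn3 probe sets on each array. On J 1a the probe sets 102786_at and 94464_at are at 582 and 616, against 1881 to 5481 on the other arrays, while 94463_at is at its highest there.

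Clcn2 and Clcn4 also turned on 1 array. Clcn2, an inwardly rectifying membrane channel, read 123 and 112 on the J arrays and 687 and 112 on the NJ arrays, so that its difference of −1.23 ± 0.90 came from NJ 1a and was −0.21 without that array. The log2 means of Clcn2 were 7.18 in J and 8.42 in NJ, so it passed the filter on low signal through the NJ arrays. Clcn4, an endosomal exchanger, read 158 and 1181 on the J arrays and 670 and 986 on the NJ arrays at 104704_at, with a difference of −0.93 ± 0.90 that was 0.51 without J 1a. Its other probe set, 99672_at, gave 758 and 837 on the J arrays and 942 and 690 on the NJ arrays. Clcn5, the exchanger of kidney endosomes, differed by 0.49 ± 0.63 at 161451_r_at and 0.69 ± 0.79 at 101913_at, with groups that overlapped at both after normalisation. Clcn7, the lysosomal exchanger, read 928 and 785 on the J arrays and 798 and 894 on the NJ arrays at 104391_s_at. Its difference of −0.01 ± 0.51 was 0.01 on the deposited scale. Clcn6 was not analysed here.

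Genes that work beside the channels were read from 3 further lists, and limma called 0 of them at an adjusted p under 0.05. Of the sodium pump and its FXYD regulators 7 probe sets were tested, 3 with a higher and 4 with a lower mean in J (median −0.13). Fxyd1, the phospholemman of muscle, read 18251 and 12395 on the J arrays and 16297 and 12398 on the NJ arrays, a difference of 0.22 ± 0.40. Atp1b3, a beta subunit of the pump, read 2800 and 3135 on the J arrays and 2432 and 2254 on the NJ arrays, a difference of 0.33 ± 0.37. Of the anchoring and partner proteins 23 probe sets were tested, with 10 higher and 13 lower (median −0.08). Nedd4l, a ubiquitin ligase known to remove sodium channels from the membrane, read 386 and 635 on the J arrays and 105 and 56.5 on the NJ arrays at 103907_at, all under background. The difference there was 2.14 ± 0.79, with 1.60 and 2.68 in the pairs (limma unadjusted p = 0.023, adjusted p = 0.9998). The log2 means there were 8.98 in J and 6.83 in NJ, so Nedd4l passed the filter at 103907_at through the J arrays. Its brighter probe set, 103906_f_at, read 420 and 2216 on the J arrays and 1843 and 1183 on the NJ arrays, above background on 3 arrays. That probe set differed the other way, by −0.75 ± 0.73, so the probe sets of Nedd4l disagree. Ank1, an ankyrin of the membrane skeleton, had 3 probe sets above background on all arrays, which differed by −0.15 ± 0.51 at 100440_f_at, −0.19 ± 0.43 at 100439_i_at and 0.27 ± 0.39 at 100441_s_at. Sptbn1, a spectrin, differed by −0.14 ± 0.39.

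Of the other channels and pumps of the membrane 11 probe sets were tested, 3 with a higher and 8 with a lower mean in J (median −0.13). Hcn2, a pacemaker channel, gave 6460 to 8653 at 94195_r_at, with a difference of −0.13 ± 0.37. Its other probe set, 94194_s_at, was under background on all arrays (45.3 to 446) and differed by −0.41 ± 0.99, so the probe sets disagree on whether the transcript was above background. Slc12a2, a chloride importer, differed by −0.29 ± 0.46. Trpv2, a cation channel, read 54.0 and 304 on the J arrays and 380 and 412 on the NJ arrays. Its difference was −1.39 ± 0.93, and −0.24 without J 1a.

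Markers of fibres and of other cell types were read on the same arrays. Of 18 probe sets for muscle fibre markers 14 were above background on all 4 arrays. Their summed signal was 1286411 and 252259 on the J arrays and 1011302 and 757637 on the NJ arrays, lowest on J 1c. The J mean was the higher one for 6 of the 16 tested and the lower one for 10. Their median difference was −0.15, or −0.52 on the deposited scale. All 10 smooth muscle and pericyte probe sets tested were higher in J (median 0.42), against 49.2% of all probe sets tested. Their sums were 16282 and 12417 on the J arrays and 12728 and 10260 on the NJ arrays. The list was Acta2, Myh11, Tagln, Cnn1, Mylk, Des, Pdgfrb, Rgs5, Smtn and Lmod1, and the part of muscle fibres in these signals was not tested. Of 16 fibroblast probe sets 13 were higher in J (median 0.65), with sums of 121517 and 53780 on the J arrays and 67615 and 58306 on the NJ arrays. Of 12 neuron and axon probe sets tested 4 were higher and 8 lower in J (median −0.15), with sums of 10040 and 5034 on the J arrays and 7054 and 5467 on the NJ arrays, and 14 of all 17 were under background on every array. Of the other markers tested, 2 of 8 Schwann cell, 4 of 9 endothelial, 5 of 8 immune cell and 3 of 3 blood probe sets were higher in J. No marker probe set was listed at 0, and none of these lists had a probe set that limma called. The part of these cells in the channel signals was not tested.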

How the data were processed

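The deposited file gives a linear intensity for every probe set on each array; which software the authors used is not given in the sources used here. From the values, the trimmed means of the deposited columns (2% at each end) were 800.5 to 800.6, so each array had been scaled to a common level. Arrays limit the precision by their number, 2 a group. The table has 12488 rows, of which 66 controls were left out. Gene names come from the platform's table (10833 probe sets with 1 symbol). Signals were taken as log2(value + 32). Column medians differed by more than 0.1, so arrays were quantile normalised. The 9316 probe sets with a mean above the 25th percentile were tested with limma 3.58.1 in R 4.3.3 (lmFit, eBayes with an intensity trend), with Benjamini-Hochberg adjustment over all of them at 0.05. The script was tested on simulated data.

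Named are the members above background on all 4 arrays, those with groups that do not overlap and a difference of at least 1, a list of channels known from muscle fibres with all their probe sets, and by the same measures or as the 2 with the highest mean signal, genes of the neighbouring lists. Members named beside these were chosen after their values were seen. The members, lists and tests were chosen with earlier results of these data known. Alternatives were other scalings, pseudocounts (1 and 100), filters, no variance trend, a number format term, each array left out, and other background levels. Figures were drawn with matplotlib 3.10.9.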

Additional observations from a re-analysis of the deposited data

How the results depend on the processing

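No paired analysis was possible because J and NJ share only 1 replicate label, 1a, and pairing by label needs at least 2. The number format term does block on the 1a pair and the 1c/1d pair, which the labels do not give as pairs, and leaves 1 residual degree of freedom. limma called 0 of the tested channel probe sets in every alternative, while over all probe sets it called 8 with the number format term and 0 to 4 with each array left out. The median difference of the channel probe sets moved by less than the spread between arrays of a group (0.304) in every alternative. Of the 81 channel probe sets, 16 (19.8%) were above background on all arrays with the 75th percentile and 1 with the 95th. With the non-mouse controls 22 (27.2%) were above it, 11 when 3 arrays sufficed, and 3 to 9 with each array left out. In the same order, the shares over all probe sets were 29.8%, 12.6%, 37.8%, 25.1% and 19.1% to 22.4%. Those with groups that do not overlap numbered 7 of 32 with the filter at the median (21.9%, against 25.7% of all) and 28 to 37 with each array left out, since a group of 1 array overlaps less often (58.1% to 71.2% of all probe sets).

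Of 255 alternative fits of 22 named probe sets, 18 turned the sign, for 10 probe sets, and 0 were called. Of these, Clcn7 at 104391_s_at was 0.01 on the deposited scale and Kcnq1 at 161796_r_at was −0.02 with median centring. With each array left out, Cacna2d1 ranged from −0.30 to 0.26, Clcn4 from −2.32 to 0.51 at 104704_at and −0.23 to 0.09 at 99672_at, Clcn7 from −0.14 to 0.12 at 104391_s_at and −0.18 to 0.31 at 104392_at, Kcna7 from −0.33 to 1.04, Kcnj11 from −0.76 to 2.20, Kcnk4 from −0.51 to 0.28, Kcnma1 from −0.47 to 0.01 and Kcnq1 at 161796_r_at from −0.44 to 0.47. The cause was not tested.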
